A study of Homo sapiens with 24 samples.

Results

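The SR proteins are a family of splicing factors, and the CLK kinases are enzymes that phosphorylate them. Described here are 10 genes of these families (SRSF4, SRSF5, SRSF6, SRSF8, SRSF10, SRSF11, SRSF12, TRA2A, CLK1 and CLK4) out of 60668 rows in the gene count table. The genes were chosen by their response in the MYC-ER cells: they are the SR family members whose change after MYC-ER activation was weak, opposite to that of the rest of the family or measured on few reads, together with CLK1 and CLK4. The choice used no numeric threshold. The change in MYC-ER cells, and any difference between the lines that contains it, is therefore given as a description with no p-value. Tests are given for the parental cells, whose response the rule of choice does not name. The choice was made with earlier results of these data known, so these p-values may not be fully independent of it.

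RNA was measured by sequencing in MCF-10A, an immortalised human mammary epithelial line, as the parental cells, and in MCF-10A MYC-ER cells, which carry the transcription factor MYC joined to an oestrogen receptor fragment that binds hormone, so that the ligand 4-hydroxytamoxifen (4-OHT) switches it on. Both lines grew in 3D culture on growth factor-reduced Matrigel and received 1 µM 4-OHT for 0, 8, 24 or 48 h, with treatment begun no earlier than day 3 and every group collected on day 5. There were 3 replicates in each of 8 groups, 24 libraries in all, with 136860029 to 182438505 counted reads each. The 4-OHT was given to the parental cells too, so their change over time is the background for the ligand and the culture without the fusion protein. The labels used here do not give the promoter of the fusion gene, whether the line is a clone, or whether the 0 h wells received a solvent. Wells were seeded in triplicate, and the spread between these samples may be technical. The p-values rest on an estimate of this spread that all 8 groups share, so they do not measure the spread of the compared groups alone.

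SR proteins carry RNA recognition motifs and a tail rich in arginine and serine. They bind enhancer sequences in exons and help the splicing machinery to recognise the neighbouring splice sites. SRPK kinases phosphorylate the tail in the cytoplasm, which allows import into the nucleus, and CLK kinases phosphorylate it further in the nucleus, which releases SR proteins from the nuclear speckles where they are stored. Many SR genes limit their own output through transcripts with premature stop codons that are removed by nonsense-mediated decay, and CLK1 transcripts with retained introns are held in the nucleus.

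The genes lie on 8 chromosomes of GRCh38 (GENCODE 29 annotation). CLK1 is at chr2:200853009-200864744 and CLK4 at chr5:178602664-178630615, both on the minus strand. SRSF4 (chr1:29147743-29181987) and SRSF10 (chr1:23964804-23980927) are on the minus strand of chromosome 1, and SRSF11 (chr1:70205682-70253052) is on its plus strand. SRSF5 is at chr14:69726900-69772005, SRSF6 at chr20:43457928-43464247 and SRSF8 at chr11:95067197-95071224, all on the plus strand. SRSF12 is at chr6:89095959-89118081 and TRA2A at chr7:23504780-23532041, both on the minus strand. The annotation lists 15 transcripts of CLK1, of which 4 are protein-coding and 8 have a retained intron, and 15 of CLK4, of which 4 are protein-coding and 7 have a retained intron. Of the 19 transcripts of SRSF5, 8 are protein-coding and 8 have a retained intron. The counts are summed per gene, so a change in them does not separate coding transcripts from these other forms.

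The 250 bases before the RefSeq start are shown for 4 genes because the results turn on them: CLK1 and CLK4, whose levels moved furthest downwards together in MYC-ER cells, and SRSF10 and its relative SRSF12, which were higher at 8 h in both lines. RefSeq (GRCh38.p14) held this stretch for 9 of the 10 genes, all but TRA2A. MYC binds the E-box CACGTG and the related CACGCG, and both were searched on both strands; the pair do not overlap in these sequences. Capitals mark a match. The sequences run 5′ to 3′ on the minus strand, at chr2:200864659-200864908 for CLK1, chr5:178627051-178627300 for CLK4, chr1:23980328-23980577 for SRSF10 and chr6:89118072-89118321 for SRSF12.
CLK1: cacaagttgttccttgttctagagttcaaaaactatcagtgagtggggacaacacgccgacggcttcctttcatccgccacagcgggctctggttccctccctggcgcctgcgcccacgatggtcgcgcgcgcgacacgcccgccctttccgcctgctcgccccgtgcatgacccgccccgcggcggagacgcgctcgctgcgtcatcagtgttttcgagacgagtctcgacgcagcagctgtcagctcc
CLK4: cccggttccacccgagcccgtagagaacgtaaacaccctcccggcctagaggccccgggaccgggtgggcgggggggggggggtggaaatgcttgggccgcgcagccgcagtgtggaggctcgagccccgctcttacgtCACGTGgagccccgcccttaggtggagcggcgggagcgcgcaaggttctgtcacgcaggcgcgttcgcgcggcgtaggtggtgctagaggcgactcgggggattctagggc
SRSF10: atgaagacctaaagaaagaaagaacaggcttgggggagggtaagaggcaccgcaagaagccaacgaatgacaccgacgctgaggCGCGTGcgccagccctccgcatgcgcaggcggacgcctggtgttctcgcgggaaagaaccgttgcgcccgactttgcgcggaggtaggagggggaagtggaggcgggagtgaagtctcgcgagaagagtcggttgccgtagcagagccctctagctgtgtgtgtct
SRSF12: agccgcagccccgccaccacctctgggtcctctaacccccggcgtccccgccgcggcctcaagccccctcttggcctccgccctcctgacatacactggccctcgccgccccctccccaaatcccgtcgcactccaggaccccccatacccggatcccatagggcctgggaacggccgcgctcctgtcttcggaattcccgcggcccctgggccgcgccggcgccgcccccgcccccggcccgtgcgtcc
CACGTG was found in 1 of the 9 genes, CLK4, where it begins 111 bases before the start. CACGCG was found in 1, SRSF10, where it lies 166 bases before the start and is written here as its reverse complement. Among 35116 promoter stretches of the same length, 6.34% held CACGTG and 9.72% held CACGCG. A match is a description of the letters in this window, and binding was not measured.

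All 10 genes passed the filter on low counts that left 22158 genes to test. Levels are given in CPM, depth-normalised counts scaled by TMM (a correction for library composition), and changes as log2 differences with their standard errors (SE). Keratin 5 and keratin 14, markers of basal mammary epithelium, were at 6763 to 14120 CPM and 603.1 to 10880 CPM. Of 5 markers of other cell types, PTPRC (at most 0.0124 CPM), DES (at most 0.0993 CPM), PECAM1 and PDGFRB were low, while the collagen gene COL1A1 was at 53.6 to 220.4 CPM. Their summed level was 212.6 to 221.3 CPM in the MYC-ER libraries at 0 h, 55.7 to 82.8 CPM in the later MYC-ER libraries and 55.0 to 106.8 CPM in the parental libraries. CLK1, CLK4 and SRSF5, described next, were high in MYC-ER cells at 0 h, where this sum was high, and also at 48 h, where it was 76.8 to 82.8 CPM. The summed level of 4 markers of epithelium was 348.1 to 368.4 CPM in MYC-ER cells at 0 h, 805.6 to 859.3 CPM at 8 h and 561.6 to 662 CPM later, and that of 5 basal markers was 13680 to 15270 CPM at 0 and 8 h and 8717 to 10060 CPM later. Of the 4 markers of epithelium, EPCAM was the lowest, at 1.73 to 77.8 CPM over all libraries. CDH1 was at 108.7 to 226.8 CPM, KRT18 at 91.2 to 520.3 CPM and KRT8 at 40.6 to 226.6 CPM. The part of all these markers in the values below was not tested. In bulk samples, fewer cells of a type and less RNA per cell cannot be told apart.

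The parental 0 h group, the baseline of every parental test, stands apart: its 3 replicate pairs differed by a chi-square per degree of freedom of 159 to 261, against 8.45 to 63.3 for the pairs of the other groups. Because the fit shares its estimate of spread over all groups, the SE and p-values of parental tests can understate the spread of this baseline. Parental changes moved with the GC content of genes. Across 9784 genes with at least 10 CPM, the parental log2 difference had a Spearman correlation with transcript GC content of -0.63, -0.67 and -0.66 for the 3 successive times. The MYC-ER values were 0.01, -0.07 and 0.03, and genes are not independent replicates. Of the 10 genes, 9 had a GC content below the median of 48.9%, from 37.8% in CLK4 to 46.3% in SRSF5, and SRSF4 had 54.0%. Parental changes from 0 h that passed the test are therefore given also with each library's trend on GC content removed. Differences between the lines at a given time were not refitted this way, and those at 0 h rest on the parental 0 h group.

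Per kilobase of transcript, SRSF5 had the highest mean level over the 24 libraries, at 202.1 CPM per kb. SRSF10 (80.9 CPM per kb), SRSF11 (61.5 CPM per kb), SRSF4 (54.9 CPM per kb), SRSF6 (52.5 CPM per kb) and CLK1 (45.6 CPM per kb) followed. TRA2A, CLK4 and SRSF8 were lower, at 26.4, 20.9 and 12.1 CPM per kb, and SRSF12 was the lowest at 0.472 CPM per kb, from 131 to 606 reads per library. The lengths are medians of the annotated coding transcripts. The highest group mean was 4.41 times the lowest for SRSF12, 3.81 times for CLK1 and 3.47 times for CLK4, against 1.12 times for SRSF4.

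**Figure D1:**
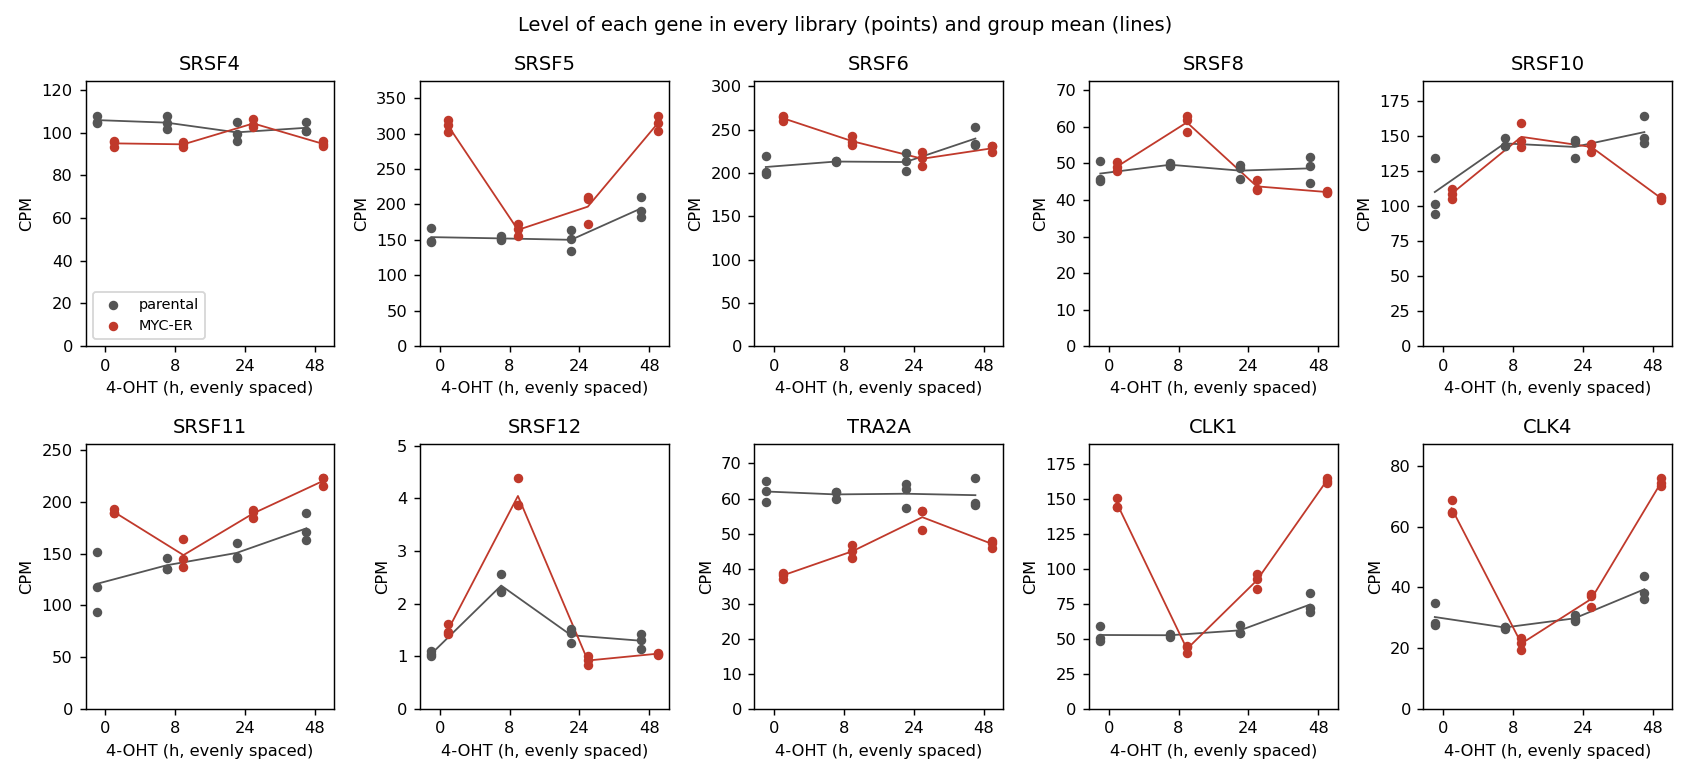
Level of each of the 10 genes in every library, in CPM on a linear axis from 0, against hours of 4-OHT (evenly spaced), for parental and MYC-ER cells with 3 replicates a group. CLK1 and CLK4 in MYC-ER cells are lower at 8 h than at 0 h or 48 h, while SRSF4 lies between 93.3 and 108 CPM in every library.

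CLK1 and CLK4 are closely related kinases of the nuclear SR protein cycle. No stretch of 75 bases from the coding transcripts of either occurs in an annotated transcript of the other. Their non-coding transcripts were not compared with each other. CLK1 in MYC-ER cells was at 144.6, 151.1 and 144.7 CPM at 0 h and at 39.8, 44.6 and 44.1 CPM at 8 h. It was at 85.9, 93.0 and 96.8 CPM at 24 h and at 163.1, 161.5 and 165 CPM at 48 h. Every 8 h and 24 h library was below every 0 h library, and every 48 h library was above them. The log2 difference from 0 h was -1.78 (SE 0.074) at 8 h, -0.68 at 24 h and 0.15 at 48 h.

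CLK4 followed the same course at a lower level. In MYC-ER cells it was at 64.6, 68.8 and 64.7 CPM at 0 h, at 19.5, 23.3 and 21.7 CPM at 8 h, at 33.5, 37.8 and 37.3 CPM at 24 h and at 74.4, 73.3 and 75.9 CPM at 48 h. No 8 h, 24 h or 48 h library overlapped the 0 h libraries. The log2 difference from 0 h was -1.62 (SE 0.083) at 8 h, -0.87 at 24 h and 0.17 at 48 h. Over the 8 group means, log2 levels of CLK1 and CLK4 had a Pearson correlation of 0.98, a description over groups that share their libraries.

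In parental cells CLK1 was at 50.5, 59.3 and 48.7 CPM at 0 h, and its 8 h libraries lay within that range, at 51.4, 53.0 and 53.5 CPM. At 48 h it was at 82.5, 72.0 and 69.2 CPM, all above the 0 h libraries, and the rise of 0.50 (SE 0.072) passed the test (edgeR quasi-likelihood adjusted p = 2.81e-05). CLK4 rose by 0.38 (SE 0.081) at 48 h (edgeR adjusted p = 0.000742), from 28.3, 34.9 and 27.5 CPM to 43.7, 38.3 and 36.1 CPM. Neither kinase passed the test at 8 h or 24 h, although CLK1 at 24 h did so without parental 0 h replicate 2 (0.18, adjusted p = 0.0328, edgeR). With the GC trend removed, CLK1 was called lower at 8 h (-0.22, adjusted p = 0.0124, edgeR) and 24 h (-0.23, adjusted p = 0.00506, edgeR) and higher at 48 h (0.19, adjusted p = 0.0204, edgeR). CLK4 was then called lower at 8 h (-0.47, adjusted p = 2.28e-05, edgeR) and 24 h (-0.45, adjusted p = 2.62e-05, edgeR) and was not called at 48 h (-0.05, adjusted p = 0.577, edgeR). Before 4-OHT, CLK1 was 1.47 higher on the log2 scale in MYC-ER than in parental cells and CLK4 was 1.13 higher. At 8 h both were lower in MYC-ER cells, by log2 differences of -0.30 and -0.32. None of these line differences was refitted with the GC trend removed.

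SRSF4, SRSF5 and SRSF6 are SR proteins with a pair of RNA recognition motifs. SRSF5 in MYC-ER cells was at 312.1, 318.7 and 302.5 CPM at 0 h and at 155.2, 172.1 and 164.6 CPM at 8 h. It was at 171.7, 207.9 and 210.8 CPM at 24 h and at 314.3, 303.3 and 325.3 CPM at 48 h, where the libraries overlapped those of 0 h. The log2 difference was -0.92 (SE 0.079) at 8 h, -0.66 at 24 h and 0.01 at 48 h. Its course was thus like that of the CLK kinases: over the 8 group means its correlation was 0.96 with CLK1 and 0.95 with CLK4. In parental cells SRSF5 was at 146.9, 166.4 and 148.1 CPM at 0 h and rose by 0.34 (SE 0.078) to 209.8, 190.5 and 182.4 CPM at 48 h (edgeR adjusted p = 0.0015), or 0.24 with the GC trend removed (adjusted p = 0.014, edgeR). At 0 h it was 1.02 higher on the log2 scale in MYC-ER than in parental cells, a value not refitted with the GC trend removed.

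SRSF6 was at 264.1, 266.2 and 259.8 CPM in MYC-ER cells at 0 h and lower in every later library, at 235.4, 242.7 and 231.7 CPM at 8 h, 208.5, 217 and 223.6 CPM at 24 h and 230.9, 223.7 and 230.8 CPM at 48 h. The largest of these log2 differences was -0.28 (SE 0.048) at 24 h. In parental cells SRSF6 rose by 0.21 (SE 0.048) at 48 h, from 199, 220.1 and 201.4 CPM to 252.6, 232.7 and 233.8 CPM (edgeR adjusted p = 0.00116). This direction turned with the GC trend removed, when SRSF6 was called lower at 48 h (-0.15, adjusted p = 0.0297, edgeR), and at 8 h (-0.21) and 24 h (-0.33). The 48 h call was also lost when only the compared groups were fitted (adjusted p = 0.13, edgeR). Of its 75-base stretches, 4.33% also occur in transcripts of another gene, so a small share of its reads is uncertain.

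SRSF4 varied least of the 10. Its MYC-ER libraries were at 93.3, 95.5 and 96.2 CPM at 0 h and at 94.8, 95.4 and 93.4 CPM at 8 h, and the groups overlapped. At 24 h they were at 103.8, 106.4 and 102.8 CPM, above every 0 h library, with a log2 difference of 0.14 (SE 0.039). In parental cells its log2 differences from 0 h lay between -0.08 and -0.02, and none passed the test; without parental 24 h replicate 2 the 24 h value was -0.12 (adjusted p = 0.0283, edgeR), and with upper-quartile scaling it was -0.16 (adjusted p = 0.00411, edgeR). The values were 0.08, 0.05 and 0.08 with the GC trend removed, and none was called.

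SRSF10 represses splicing when it is dephosphorylated, as after heat shock, and SRSF12 is its relative. SRSF12 had the largest upward difference of the 10 genes at 8 h in each line, on few reads. In MYC-ER cells it was at 1.47, 1.42 and 1.61 CPM at 0 h, at 4.38, 3.88 and 3.88 CPM at 8 h, at 0.920, 0.827 and 1.01 CPM at 24 h and at 1.03, 1.04 and 1.07 CPM at 48 h. The 8 h libraries were above, and the 24 h and 48 h libraries below, every 0 h library. The log2 difference was 1.43 (SE 0.119) at 8 h, -0.71 at 24 h and -0.52 at 48 h. Parental libraries were at 0.994, 1.10 and 1.04 CPM at 0 h, and SRSF12 rose by 1.17 (SE 0.119) to 2.56, 2.24 and 2.23 CPM at 8 h (edgeR adjusted p = 8.21e-07). It was still higher at 24 h by 0.42 (edgeR adjusted p = 0.00633) and at 48 h by 0.31 (edgeR adjusted p = 0.044). The 48 h call was lost without 0 h replicate 1 (adjusted p = 0.131, edgeR), 0 h replicate 3 (adjusted p = 0.0698, edgeR), 48 h replicate 2 (adjusted p = 0.19, edgeR) or 48 h replicate 3 (adjusted p = 0.0947, edgeR). With the GC trend removed, the 8 h rise was 0.87 (SE 0.129; adjusted p = 4.22e-05, edgeR) and the 24 h and 48 h values were -0.01 and -0.13, neither called. The 8 h increase differed between the lines by 0.27 (SE 0.166) on the log2 scale. With the GC trend removed the 8 h increase was 1.41 in MYC-ER and 0.87 in parental cells.

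SRSF10 in MYC-ER cells was at 105.2, 112.5 and 108.6 CPM at 0 h, at 146.8, 159.6 and 141.9 CPM at 8 h, at 138.7, 143.8 and 144.1 CPM at 24 h and at 106, 104.2 and 106.6 CPM at 48 h. It was above every 0 h library at 8 h (log2 difference 0.46, SE 0.087) and 24 h (0.39), and overlapped them at 48 h (-0.04). In parental cells it rose at all 3 times, by 0.40 (SE 0.087) at 8 h (edgeR adjusted p = 0.00172), by 0.37 at 24 h (edgeR adjusted p = 0.00154) and by 0.47 at 48 h (edgeR adjusted p = 0.000198). The parental 0 h libraries were at 101.3, 134.6 and 94.1 CPM, with replicate 2 apart from the other two. Without that library the rises were 0.57, 0.54 and 0.64, all past the test. With the GC trend removed they were 0.17 (adjusted p = 0.0138, edgeR), 0.03 (adjusted p = 0.714, edgeR) and 0.14 (adjusted p = 0.0328, edgeR). With only the compared groups fitted, the 8 h and 24 h calls were lost (adjusted p = 0.0953 and 0.0751, edgeR).

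SRSF11, a splicing factor with an arginine- and serine-rich tail, was at 193.4, 189.1 and 189.4 CPM in MYC-ER cells at 0 h and at 144.4, 163.9 and 137.6 CPM at 8 h, a log2 difference of -0.36 (SE 0.108) with no overlap. At 24 h the groups overlapped (-0.01), and at 48 h the libraries were at 215.6, 222.9 and 222.8 CPM, above every 0 h library (0.21). The parental 0 h libraries were at 117.4, 151.8 and 93.3 CPM. SRSF11 rose by 0.32 (SE 0.108) at 24 h (edgeR adjusted p = 0.0201) and by 0.53 at 48 h (edgeR adjusted p = 0.000487), when it was at 189.4, 163.4 and 170.7 CPM. The 24 h call was lost without parental 0 h replicate 1 (adjusted p = 0.0658, edgeR), without 0 h replicate 3 (adjusted p = 0.126, edgeR) and without 24 h replicate 1 (adjusted p = 0.0829, edgeR). At 8 h the difference of 0.20 did not pass, but without 0 h replicate 2 it was 0.40 (adjusted p = 0.000432, edgeR). With the GC trend removed, the 24 h value was 0.02 (adjusted p = 0.835, edgeR) and the 48 h value was 0.25 (adjusted p = 0.0108, edgeR).

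SRSF8, which arose from a reverse-transcribed copy of SRSF2, was at 49.2, 47.9 and 50.4 CPM in MYC-ER cells at 0 h and at 62.0, 63.1 and 58.7 CPM at 8 h. It was below every 0 h library at 24 h (45.5, 42.7 and 43.0 CPM) and at 48 h (41.9, 42.5 and 42.2 CPM). The log2 differences were 0.32 (SE 0.053), -0.17 and -0.22. In parental cells its differences were 0.02 to 0.07 and none passed the test, while with the GC trend removed SRSF8 was called lower at 24 h (-0.17, adjusted p = 0.00496, edgeR) and 48 h (-0.14, adjusted p = 0.0199, edgeR). Of the 75-base stretches of SRSF8, 1.16% also occur in transcripts of other genes.

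TRA2A, the paralogue of the splicing activator TRA2B, was higher in every later MYC-ER library than at 0 h. It was at 38.2, 37.1 and 38.9 CPM at 0 h, at 46.8, 45 and 43.1 CPM at 8 h, at 51.2, 56.4 and 56.5 CPM at 24 h and at 47.8, 45.9 and 47.4 CPM at 48 h. The log2 differences were 0.24 (SE 0.056), 0.52 and 0.31. In parental cells TRA2A was at 57.3 to 65.8 CPM in all 12 libraries, and none of its differences passed the test. It was called lower at all 3 times with the GC trend removed (-0.21, -0.31 and -0.30). Before 4-OHT its MYC-ER level was below the parental one (log2 difference -0.71, not refitted with the GC trend removed).

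**Figure D2:**
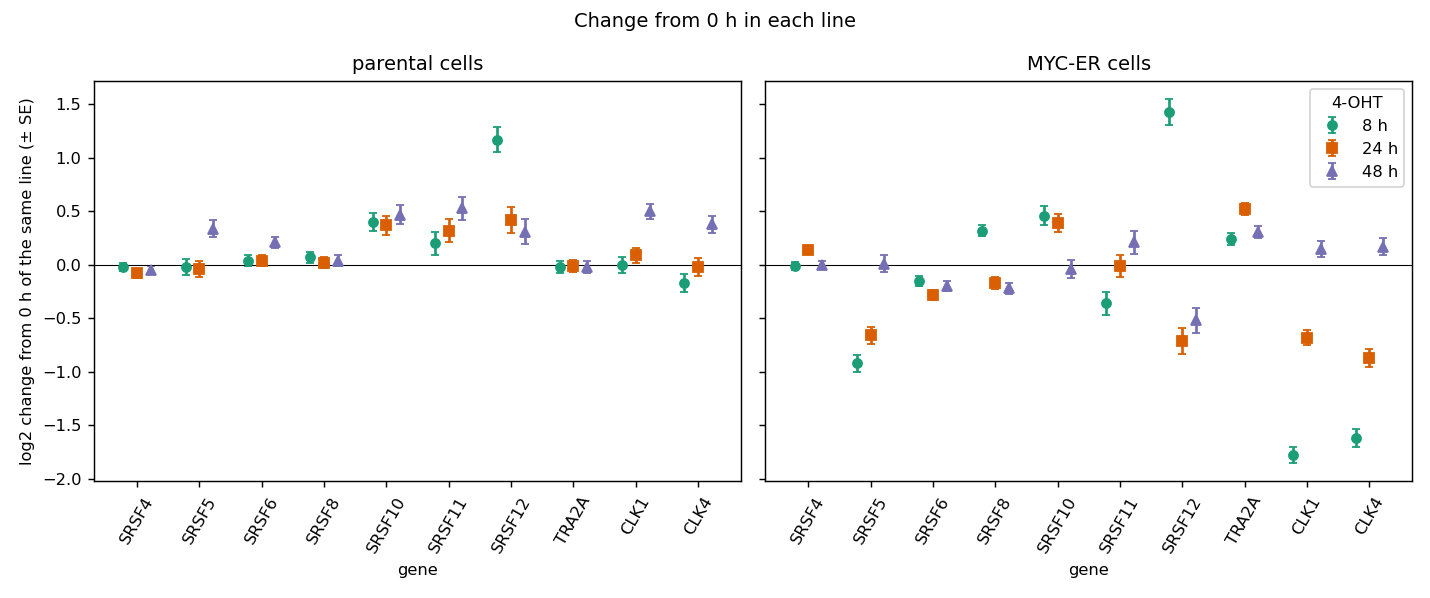
Log2 difference from 0 h of the same line for the 10 genes at 8, 24 and 48 h (bars are ± SE of the fit, 3 replicates a group), in parental and MYC-ER cells. In MYC-ER cells CLK1, CLK4 and SRSF5 lie at -1.78, -1.62 and -0.92 at 8 h and near 0 at 48 h, while SRSF12 lies above 1 at 8 h in both lines.

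In parental cells, 2 of the 10 genes were called higher at 8 h (SRSF10 and SRSF12), 3 at 24 h (with SRSF11) and 7 at 48 h (with SRSF5, SRSF6, CLK1 and CLK4), and none was called lower. Of all genes tested, 15.0% were called higher and 16.0% lower at 8 h, 21.2% and 21.7% at 24 h, and 20.4% and 20.1% at 48 h, at an edgeR adjusted p under 0.05. The median log2 difference of the 10 was 0.02, 0.03 and 0.32, against 0.00, -0.03 and 0.00 over all genes tested. Fitted on only the 2 groups compared, the calls were SRSF12 at 8 h, none at 24 h (edgeR; 2 genes at an unadjusted p under 0.05, and 3 called by DESeq2 on all groups), and SRSF5, SRSF10 and CLK1 at 48 h.

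With each library's trend on GC content removed, 2 of the 10 were called higher and 4 lower at 8 h, 0 and 5 at 24 h, and 4 and 3 at 48 h. Of all genes with a GC value, 12.9% were then called higher and 12.5% lower at 8 h, 18.3% and 18.2% at 24 h, and 17.3% and 17.8% at 48 h. The median log2 difference of the 10 was then -0.07, -0.16 and 0.01, against -0.01, -0.03 and 0.00 over all genes with a GC value. In MYC-ER cells the 8 h differences with the trend removed were -1.81 for CLK1, -1.64 for CLK4, -0.95 for SRSF5 and 1.41 for SRSF12.

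**Figure D3:**
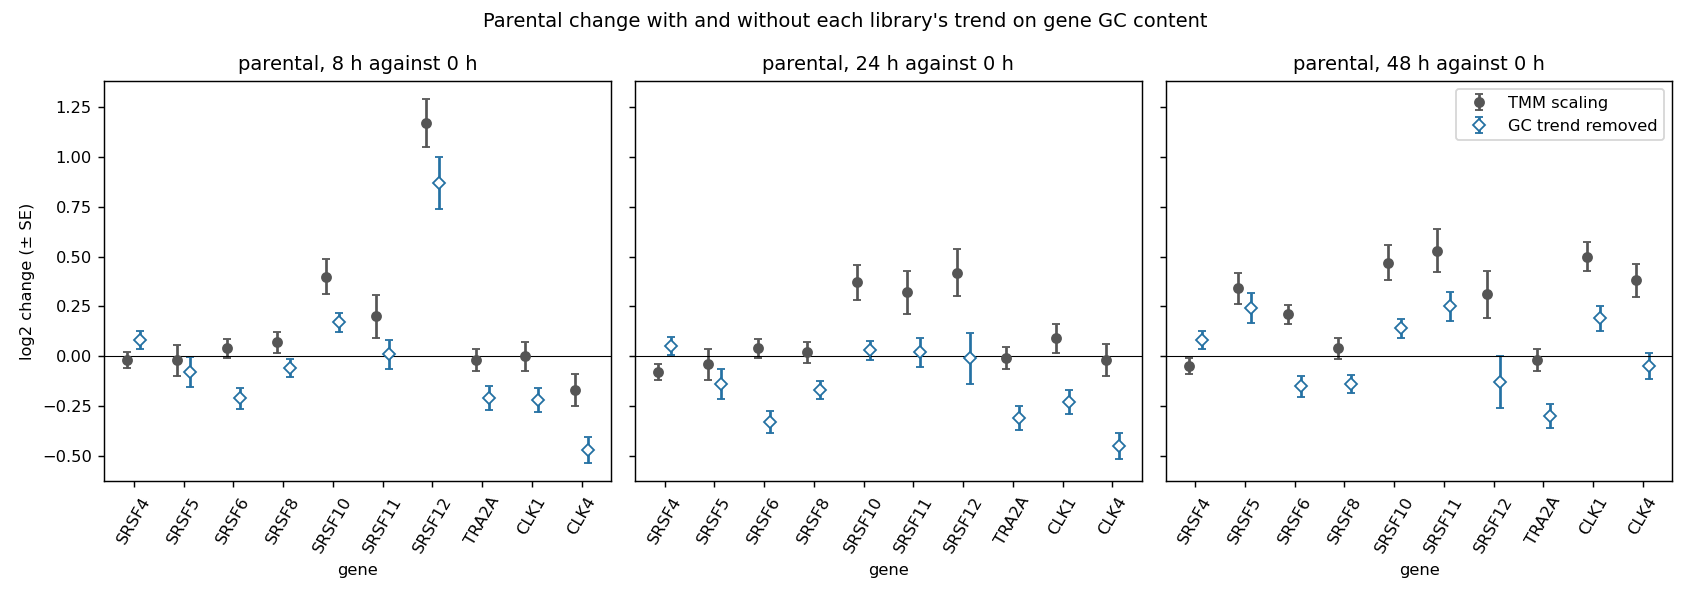
Log2 difference from 0 h in parental cells (± SE) for the 10 genes, with TMM scaling alone (filled circles) and with each library's trend on gene GC content removed (open diamonds). The rise of SRSF12 at 8 h stays well above 0 under both, while the diamonds of CLK4 and TRA2A lie below 0 at 8 and 24 h.

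The other SR proteins (SRSF1, SRSF2, SRSF3, SRSF7, SRSF9 and TRA2B) were separated from the 10 genes on the same MYC-ER response, so that their contrast with the 10 is a description. In MYC-ER cells their 8 h log2 differences ran from 0.81 to 1.53, those at 24 h from 0.80 to 1.46, and those at 48 h from 0.02 to 0.64. The nearest of the 10 genes at 8 h, SRSF12 aside, was SRSF10 at 0.46, and SRSF12 at 1.43 lay within the range of the others. In parental cells 3 of these 6 were called higher and 0 lower at 8 h, 2 and 1 at 24 h, and 2 and 2 at 48 h. Of all genes, 15.0% and 16.0%, 21.2% and 21.7%, and 20.4% and 20.1% were called. Removal of the GC trend gave 3 and 1, 1 and 2, and 1 and 3 of the 6. Of all genes with a GC value, 12.9% and 12.5%, 18.3% and 18.2%, and 17.3% and 17.8% were then called.

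The remaining kinases that act on SR proteins and the import receptor TNPO3 made a list of 11 genes. In MYC-ER cells 4 were called higher and 4 lower at 8 h, where 32.2% and 35.4% of all genes were; 5 and 3 at 24 h, where 30.4% and 31.2% were; and 2 and 3 at 48 h, where 23.4% and 20.7% were. SRPK1, the cytoplasmic SR protein kinase, rose from 115.4 ± 5.3 to 244.4 ± 8.27 CPM (SD, n = 3) at 8 h, by 1.08 on the log2 scale (edgeR adjusted p = 1.11e-12). DYRK3 rose by 0.77, and DYRK1B and DYRK1A fell by 1.09 and 0.66. CLK2 and CLK3, which may have been kept out of the 10 genes because of their response, are in these counts. Their 8 h log2 differences were -0.11 and -0.06. The 2 genes called higher at 48 h were CLK2 (0.17) and CLK3 (0.16), and CLK3 (0.42) was among the 5 at 24 h. The MYC-ER calls of CLK2 and CLK3 are therefore a description. In parental cells, where 15.0% and 16.0%, 21.2% and 21.7%, and 20.4% and 20.1% of all genes were called, the list had 2 higher and 2 lower at 8 h, 7 and 4 at 24 h, and 6 and 0 at 48 h. These were 1 and 1, 5 and 2, and 4 and 0 with the GC trend removed. Of all genes with a GC value, 12.9% and 12.5%, 18.3% and 18.2%, and 17.3% and 17.8% were then called.

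SR-related proteins of the nuclear speckle made a list of 24. In MYC-ER cells 5 were called higher and 14 lower at 8 h (median log2 difference -0.42, against -0.10 over all genes), 10 and 9 at 24 h, and 2 and 6 at 48 h, where 32.2% and 35.4%, 30.4% and 31.2%, and 23.4% and 20.7% of all genes were called. RSRP1 fell by 1.62 from 185.3 ± 4.16 CPM (SD, n = 3) and PNISR fell by 1.56 from 246.5 ± 12.2 CPM (SD, n = 3) at 8 h, while RBM25 rose by 1.01 and SON by 0.33. In parental cells 5 were called higher and 5 lower at 8 h, 9 and 2 at 24 h, and 17 and 1 at 48 h. Of all genes, 15.0% and 16.0%, 21.2% and 21.7%, and 20.4% and 20.1% were called. The list had 1 and 8, 5 and 5, and 9 and 4 with the GC trend removed. Of all genes with a GC value, 12.9% and 12.5%, 18.3% and 18.2%, and 17.3% and 17.8% were then called.

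**Figure D4:**
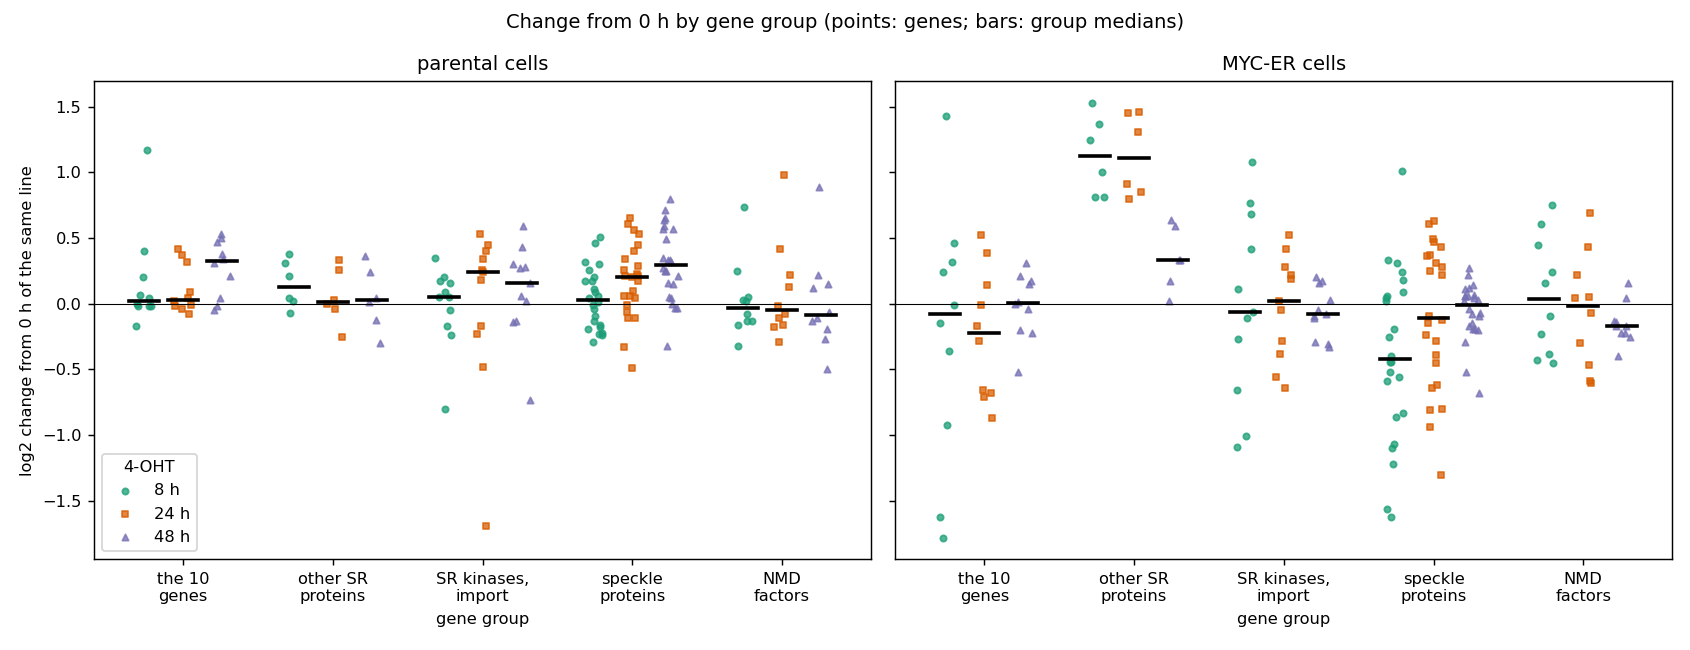
Log2 difference from 0 h (y axis) of each gene (points) of the 10 genes and of the other SR protein, kinase, speckle and nonsense-mediated decay (NMD) lists, by line and time, with bars at the medians. In MYC-ER cells at 8 h the other SR proteins lie between 0.81 and 1.53, and the speckle list has a median of -0.42.

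The genes with the most similar course were found by Pearson correlation over the 8 group means of log2 CPM, among 9679 genes with at least 10 CPM. Among these were BTN3A1 (0.995) for CLK1, LUC7L3 (0.990) and ZNF182 (0.985) for CLK4, and R3HDM2 (0.987) and MED28 (0.984) for SRSF5. WDR62 (0.996) and PHTF1 (0.991) came first for TRA2A, ZNF33A (0.994) and C21orf91 (0.973) for SRSF11, and CIAO1 (0.988) and IL17RA (0.973) for SRSF8. The first for SRSF10 were OTUD6B (0.980) and C2orf69 (0.970), for SRSF4 PPA2 (0.980) and DNPH1 (0.964), for SRSF12 CDV3 (0.963) and LZIC (0.945), and for SRSF6 BCOR (0.923). The 8 points share their libraries with the members, and no p-value is given.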

How the data were processed

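RNA from 24 libraries was sequenced as 150-base paired-end reads from a stranded poly(A) kit, with 3 libraries pooled per lane, per the labels' protocols; which libraries shared a lane is not given in the sources used here. The deposited table holds counts of reads per gene. Trimmomatic 0.39, STAR and StringTie 2.1.3b and the build GRCh38 are named in the submitters' processing notes; the counting step, annotation release, strand setting and treatment of multiply mapped reads are not given in the sources used here.

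Counts were filtered with filterByExpr, scaled by TMM and fitted over all 8 groups with edgeR 4.0.16 (glmQLFit and glmQLFTest, R 4.3.3), with Benjamini-Hochberg adjustment over 22158 genes and a threshold of 0.05. The biological coefficient of variation was 15.1%. Replicates of a group all differed by more than counting noise (chi-square per degree of freedom 8.45 to 261 over 24 pairs, the highest 3 all within parental 0 h). The members and gene lists were chosen with earlier results of these data known. All members are named; of each list over 6 genes, the 2 largest rises and falls past the threshold with at least 10 CPM were eligible to be named, with up to 2 genes of the most similar course per member; some of these are not reported here. Alternatives were DESeq2 1.42.0, other scalings, no filter, fits of only the compared groups, the replicate block, removal of each library's GC trend alone or together with its length trend, and leaving out each replicate. The fit was tested on simulated data. These held neither the wider spread of parental 0 h nor the GC trend, so the simulation does not bear on either.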

Additional observations from a re-analysis of the deposited data

Results flagged for a closer look

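The 10 genes were compared between the lines at each of the 3 times after 0 h. In 3 cases every library of one line lay on the opposite side of its 0 h libraries from every library of the other line. These positions are at TMM-scaled levels and were not checked under other scalings. How many of all genes tested meet the same rule was not computed, so whether 3 cases are many was not tested. The difference between the lines was not tested, because the genes were selected on the MYC-ER response. SRSF12 at 24 h was higher than 0 h in parental cells (0.42 on the log2 scale) and lower in MYC-ER cells (-0.71), a difference between the changes of -1.13. SRSF12 at 48 h was likewise higher in parental (0.31) and lower in MYC-ER cells (-0.52), a difference of -0.83. SRSF6 at 48 h was higher in parental (0.21) and lower in MYC-ER cells (-0.20), a difference of -0.42. With each library's trend on GC content removed, the parental values were -0.01, -0.13 and -0.15, so that in none of the 3 cases was the parental change upward.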

How the results depend on the processing

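The number of the 10 genes called in parental cells was 2, 3 and 7 for the 3 successive times. Leaving out each replicate gave 2 to 3, 2 to 4 and 6 to 7. Fitting only the compared groups gave 1, 0 and 3 (edgeR; 2, 2 and 6 at an unadjusted p under 0.05, against 2, 3 and 6 called by DESeq2 on all groups), and over all genes it gave 1452, 4923 and 3274 calls in place of 6870, 9503 and 8978, while in MYC-ER cells it gave 14851, 14283 and 12084. Removing the trend on GC content gave 6 and 5 calls at 8 h and 24 h, and removing that on GC content and length gave 6 and 5. Where a call was made before or after them, directions in parental cells turned under these corrections (GC content first, then GC content and length): SRSF6 at 8 h (-0.21, -0.28), 24 h (-0.33, -0.50) and 48 h (-0.15, -0.31); SRSF8 at 24 h (-0.17, -0.32) and 48 h (-0.14, -0.28); SRSF12 at 24 h (-0.01, -0.13) and 48 h (-0.13, -0.24); CLK1 at 24 h (-0.23, -0.21); CLK4 at 48 h (-0.05, -0.04); and SRSF11 at 24 h with both (-0.02). Signs of values called in none of these fits turned for SRSF8 at 8 h (-0.06, -0.12), SRSF11 at 8 h with both (-0.01) and SRSF4 at the 3 times (0.08, 0.05 and 0.08 with GC content). The cause was not tested. SRSF12 at 48 h also lost its call with DESeq2 (adjusted p = 0.0511), with no filter (adjusted p = 0.0683, edgeR) and with upper-quartile scaling (adjusted p = 0.0774, edgeR).

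Deviations of same-numbered libraries from different groups had a mean correlation of -0.0134 over 84 pairs (-0.428 to 0.586). For libraries with different numbers the mean was 0.0071 over 168 pairs (-0.526 to 0.475). The replicate numbers thus showed no uniform pairing over all groups, although some libraries of different groups shared deviations. A mean over all pairs cannot exclude pairing between some groups only. With the replicate block, 2, 3 and 6 of the 10 genes were called, and SRSF12 at 48 h (0.31) had an edgeR adjusted p of 0.0538. Scaling by library size alone moved the median of all genes by 0.109 at 24 h and 0.162 at 48 h in MYC-ER cells. Upper-quartile scaling moved it by -0.139 at 8 h. The sign of the small MYC-ER differences of SRSF4 at 8 h, SRSF11 at 24 h and SRSF10 at 48 h depended on the scaling. The 48 h MYC-ER differences of SRSF6 (-0.20) and SRSF8 (-0.22) were close in size to the 48 h shift. Whether libraries overlapped those of 0 h was judged on TMM-scaled levels alone.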

Other observations

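Factors of nonsense-mediated decay, the pathway that removes transcripts with premature stop codons, made a list of 10 genes. In MYC-ER cells 5 were called higher and 4 lower at 8 h, 3 and 3 at 24 h, and 1 and 5 at 48 h, where 32.2% and 35.4%, 30.4% and 31.2%, and 23.4% and 20.7% of all genes were called. UPF1, the helicase of the pathway, rose from 123.4 ± 2.77 to 207.2 ± 6.51 CPM (SD, n = 3) at 8 h, by 0.75 on the log2 scale (edgeR adjusted p = 1.19e-10), and SMG9 rose by 0.61 (edgeR adjusted p = 3.8e-09). UPF3B fell by 0.45 and SMG6, an endonuclease, fell by 0.43. In parental cells 2 were called higher and 2 lower at 8 h, 3 and 2 at 24 h, and 3 and 3 at 48 h, where 15.0% and 16.0%, 21.2% and 21.7%, and 20.4% and 20.1% of all genes were. With the GC trend removed these were 1 and 1, 4 and 1, and 1 and 2. Of all genes with a GC value, 12.9% and 12.5%, 18.3% and 18.2%, and 17.3% and 17.8% were then called.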
